A study of Sus scrofa with 6 samples.

Results

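The genes described here are the sensors of bile acids in an intestinal cell, the messages those sensors send out and the pumps that move bile acids across the cell. They are 10 genes, found by their gene names, of the 31908 Ensembl pig gene IDs in the deposited table. NR1H4 (FXR), GPBAR1 (TGR5), NR1H3 (LXRα) and VDR are receptors, NR0B2 (SHP) and FGF19 are signals that FXR switches on, and SLC51A (OSTα), SLC51B (OSTβ), SLC10A2 (ASBT) and ABCC2 (MRP2) are transporters. The cells were IPEC-J2, an established line of small intestinal epithelial cells from pig jejunum, grown in dishes without the other cell types of the gut wall. The CON group received PBS (3 libraries, CON_1 to CON_3) and the CDCA group received 50 μM chenodeoxycholic acid (3 libraries, CDCA_1 to CDCA_3), each for 24 h. The comparison asks how the RNA of these genes differed when the cells met a bile acid that is itself a ligand of FXR.

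Bile acids are taken up from the gut lumen by ASBT at the apical membrane of the enterocyte, carried through the cell by the binding protein FABP6 and released at the basolateral side by the OSTα-OSTβ dimer. Inside the cell, FXR pairs with an RXR receptor, binds bile acids, of which CDCA is among its strongest natural ligands, and switches on SHP, FGF19, FABP6 and the OST genes, while SHP restrains ASBT. FGF19 travels to the liver and restrains CYP7A1, the rate-limiting enzyme of bile acid synthesis, whereas TGR5 senses bile acids at the membrane and raises cAMP. LXRα is a sensor of oxysterols, and VDR binds vitamin D and the secondary bile acid lithocholic acid.

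No member had a group mean above 1.53 TPM, and the uptake transporter SLC10A2 differed most clearly between the groups. SLC10A2 was lower in every CDCA library than in every CON library, with 1.53 ± 0.15 TPM in CON and 0.33 ± 0.10 TPM in CDCA (SD, n = 3 each), and was the only member with a false discovery rate (FDR) under 0.05 when all genes with any signal were tested. The export subunit SLC51A was higher in every CDCA library, at 1.07 ± 0.19 against 0.643 ± 0.083 TPM (SD, n = 3 each), but whether it passed the test depended on which genes were tested with it. The signals downstream of FXR, NR0B2 and FGF19, were listed at 0 in every CON library and at no more than 0.05 TPM in any CDCA library.

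The values are TPM, the share of transcripts corrected for their length and scaled to a sum of 1000000, so that levels of different genes can be compared. Each gene's level is the sum over its listed transcripts. The deposited table is in TPM alone, so the number of reads behind each gene's value is not given and counting error has no interval. Values have 2 decimals, the smallest above 0 being 0.01 TPM, so a value of a few hundredths is near the last digit kept. An exact 0 can be a failed estimate as well as a silent gene. PRKAR2A, for one, a regulatory subunit of protein kinase A that most cells carry, was listed at 0 in all 6 libraries (picked with its values known). The 10 members had 24 listed transcripts, 8 of which were at 0 in all libraries. The listed TPM summed to between 351770 and 366073 per library, and genes of mitochondrial DNA took 13.8 to 15% of that sum in CON and 2.9 to 3.45% in CDCA. With totals that leave those genes out, the median log2 fold change of all tested genes was -0.08 in place of 0.05.

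The labelled cell type was partly matched by its markers. Of 22 epithelial marker genes 19 were matched, led by the keratin KRT8 with 226 ± 10 TPM in CON and 209 ± 17 TPM in CDCA (SD, n = 3 each), and the adhesion protein EPCAM stood at 122 and 160 TPM. The intestinal factors CDX1 and CDX2, the brush-border fatty acid binder FABP2 and the keratin KRT20 were at or near 0, at no more than 0.02 TPM in any library. Other intestinal markers were present at low levels: the apolipoprotein APOA4 at 1.94 and 8.33 TPM (limma FDR 0.00013, the only called gene of the list), the sucrase SI at 1.17 and 1.18 TPM and the aminopeptidase ANPEP at 0.63 and 2.04 TPM in CON and CDCA. The mucin MUC13 was listed at 0 in every CON library, with 0.67, 0.32 and 0.58 TPM in CDCA. The epithelial list summed to 441.8 to 454.8 TPM in CON and 455.9 to 500.4 TPM in CDCA. The 21 markers of other cell types summed to 1866 to 2068 TPM in CON and 1907 to 1964 TPM in CDCA, nearly all of it from VIM, a filament protein that cultured cells often carry, at 1986 and 1919 TPM. Of these markers 18 had a mean under 1 TPM, and CD68, a lysosomal protein used to mark macrophages, read 0, 0 and 0.26 TPM in CON and 5.33, 4.75 and 4.44 TPM in CDCA. The leukocyte marker PTPRC was at no more than 0.01 TPM and the macrophage receptor CSF1R at no more than 0.14 TPM in any library, and the endothelial marker PECAM1 had 1.92 and 1.22 TPM (limma FDR 0.025, but 0.063 without a filter and up to 0.073 with a library left out). Of the 8 epithelial markers over 1 TPM, 5 were higher and 1 lower at an FDR under 0.05, and 3 were higher and 2 lower under totals without mitochondrial DNA genes. All markers given here other than KRT8 and VIM were named after their values were seen. The part of these markers in the results below was not tested. In bulk RNA, fewer cells that express a gene and less RNA per cell cannot be told apart.

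A mean of at least 1 TPM was reached by 3 of the 10 members in CON, beside 26.84% of all gene IDs, by 2 in CDCA, beside 27.23%, and by 4 in either group, beside 28.65%. At a level of 0.1 TPM, 7 members passed in either group, beside 46.26% of all IDs. In CON the order of mean TPM ran from SLC10A2 and ABCC2 over NR1H3, SLC51A, GPBAR1 and SLC51B to NR1H4, with FGF19, VDR and NR0B2 listed at 0. The ranges of neighbours in this order overlapped, except that all SLC51B values lay above all NR1H4 values and NR1H4 lay above the 3 genes at 0. In CDCA, ABCC2 and SLC51A led the order with overlapping ranges, both above NR1H3, and SLC10A2 stood just below NR1H3, with a range that overlapped that of NR1H3 and lay above that of NR1H4.

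**Figure D1:**
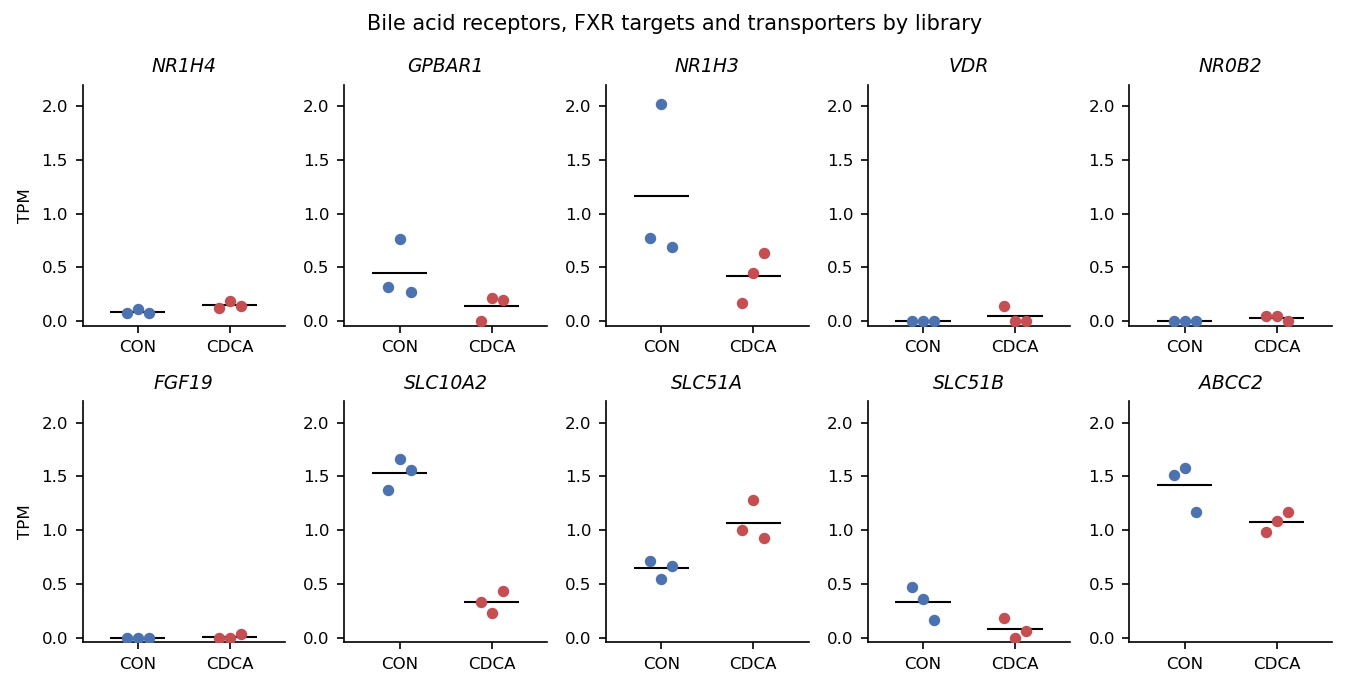
TPM of each of the 10 members in the 3 CON and 3 CDCA libraries, 1 panel per gene on a common vertical axis in TPM; points are libraries and bars are group means. SLC10A2 lies between 1.37 and 1.66 TPM in CON and between 0.23 and 0.43 TPM in CDCA, SLC51A lies higher in CDCA, and VDR, NR0B2 and FGF19 sit at 0 in CON.

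Among the receptors, NR1H4 (ENSSSCG00000000875), the FXR gene, read 0.08, 0.11 and 0.08 TPM in CON. In CDCA it read 0.12, 0.19 and 0.14 TPM. Every CDCA library lay above every CON library, yet the difference in means was 0.06 TPM, a few units of the last digit kept. The leading transcript of its 6 did not separate the groups, at 0.08, 0.11 and 0.08 TPM in CON against 0.12, 0.08 and 0.11 TPM in CDCA. A second transcript was at 0 throughout CON but read 0, 0.11 and 0.03 TPM in CDCA. The exact two-sided permutation test of the means gave p = 0.1, the smallest that 3 libraries against 3 allow, and limma over all 22549 IDs with a value above 0 gave a log2 fold change of 0.08 (SE 0.03) with a Benjamini-Hochberg FDR of 0.16.

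GPBAR1 (ENSSSCG00000022483), the membrane receptor TGR5, read 0.32, 0.76 and 0.27 TPM in CON and 0, 0.22 and 0.20 TPM in CDCA. The groups did not overlap, CDCA being the lower, but the lowest CON value and the highest CDCA value lay 0.05 TPM apart, and CON_2 stood well above its group. The exact permutation p was 0.1, and limma without a filter gave -0.34 (SE 0.15) on the log2 scale with an FDR of 0.19. Without CON_2 the estimate shrank to -0.19 with an FDR of 0.34.

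NR1H3 (ENSSSCG00000013241), the oxysterol receptor LXRα, had 0.77, 2.02 and 0.69 TPM in CON and 0.17, 0.45 and 0.63 TPM in CDCA. Its CDCA values all lay under its CON values, by as little as 0.06 TPM between CON_3 and CDCA_3. CON_2 was again the high library, and the group means were 1.16 ± 0.75 and 0.417 ± 0.232 TPM (SD, n = 3 each), with an exact permutation p of 0.1. Its 4 transcripts took turns: the leading one read 0.55, 1.59 and 0.13 TPM in CON and 0.17, 0.04 and 0 TPM in CDCA, while the second read 0, 0.43 and 0 TPM in CON against 0, 0.41 and 0.42 TPM in CDCA. The difference did not pass limma without a filter, at -0.57 (SE 0.26) with a Benjamini-Hochberg FDR of 0.21, and was -0.30 with an FDR of 0.36 without CON_2.

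VDR (ENSSSCG00000020864), the vitamin D receptor, was listed at 0 in 5 libraries and at 0.14 TPM in CDCA_1. A value in a single library gives no difference between the groups, and the exact permutation p was 1.

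Of the signals downstream of FXR, NR0B2 (ENSSSCG00000003565) encodes SHP, a repressor without a DNA-binding domain that FXR induces. It was listed at 0 in the 3 CON libraries, whereas CDCA_1, CDCA_2 and CDCA_3 had 0.05, 0.05 and 0 TPM. With CDCA_3 at 0 the groups overlapped, and the exact permutation p was 0.4; limma without a filter gave an FDR of 0.21. Leaving out CDCA_3, the FDR was 0.0082, a value that rests on equal readings of 0.05 TPM in the other 2 CDCA libraries.

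FGF19 (ENSSSCG00000012871), the enterocyte hormone that FXR induces, was listed at 0 in 5 libraries and at 0.03 TPM in CDCA_3. FABP6, the ileal bile acid carrier and another target of FXR, was listed at 0 in all 6 libraries and was named after its value was seen. No fold can be given for VDR, NR0B2 or FGF19, since their CON values were all listed at 0.

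Among the transporters, SLC10A2 (ENSSSCG00000026317), the sodium-dependent uptake transporter ASBT, stood at 1.37, 1.66 and 1.56 TPM in CON. Its CDCA libraries had 0.33, 0.23 and 0.43 TPM. All CON libraries lay far above all CDCA libraries, and the ratio of group means, CDCA to CON, was 0.216. Both of its listed transcripts were lower in mean TPM, the leading one at 1.37, 1.45 and 1.41 TPM in CON against 0.33, 0.17 and 0.43 TPM in CDCA. Its mean over the 6 libraries was 0.93 TPM, just under the filter of 1 TPM used for the 8708 tested genes, so it was tested in the limma fit without a filter. There it fell by 0.93 (SE 0.12) on the log2(TPM + 1) scale, which understates the change of low genes, with a Benjamini-Hochberg FDR of 0.0031. Of all 22549 IDs in that fit, 9.11% were lower at an FDR under 0.05. Leaving out each library in turn gave log2 fold changes of -0.98 to -0.87 with FDR of 0.011 to 0.019, and the exact permutation p was 0.1.

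SLC51A (ENSSSCG00000011846), the OSTα subunit of the basolateral exporter, had 0.71, 0.55 and 0.67 TPM in CON against 1.00, 1.28 and 0.93 TPM in CDCA. The groups did not overlap, the ratio of means was 1.66 and the exact permutation p was 0.1. Limma without a filter gave 0.33 (SE 0.12) with an FDR of 0.13, and over the 14081 IDs that averaged 0.1 TPM or more the same estimate had an FDR of 0.044. In that fit 36.4% of the IDs had an FDR under 0.05.

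SLC51B (ENSSSCG00000004923), the OSTβ partner without which OSTα does not reach the membrane, had 0.47, 0.36 and 0.16 TPM in CON and 0.18, 0 and 0.06 TPM in CDCA. CDCA_1 exceeded CON_3, so the groups overlapped, and its mean was lower in CDCA while that of SLC51A was higher. The exact permutation p was 0.2, and limma without a filter gave -0.30 (SE 0.10) with an FDR of 0.11.

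ABCC2 (ENSSSCG00000010543), the apical exporter MRP2 for conjugated bile acids and other anions, had 1.51, 1.58 and 1.17 TPM in CON against 0.98, 1.08 and 1.17 TPM in CDCA. CON_3 and CDCA_3 shared the value 1.17 TPM. It was the only member over the filter of 1 TPM, and limma gave a log2 fold change of -0.22 (SE 0.12) with an FDR of 0.17. The 3 tested genes whose profiles over the 6 libraries were nearest to it, by the root mean square difference of centred log2(TPM + 1), were PITHD1 (0.0273), SERPINF2 (0.0282) and PDCL (0.0319).

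By limma, 0 of 10 members were called, where a call needed an FDR under 0.05 and a log2 fold change over 1 in size, and 9 of them lay under the filter and were not tested there. At an unadjusted p under 0.05 there were 0 with the filter and 4 without it (NR1H4, SLC51A, SLC51B and SLC10A2), where 59.0% and 30.8% of all genes tested were under it. The background of calls was 7.42% of the 8708 tested genes, 306 higher and 340 lower; with totals that leave out the mitochondrial DNA genes the split was 231 higher and 477 lower. Without the filter 2.84% of IDs were called and 20.6% had an FDR under 0.05, and among the members this was 1 of 10, SLC10A2. The 6 libraries separated by group for 5 members, 2 with CDCA above (NR1H4 and SLC51A) and 3 with CDCA below (GPBAR1, NR1H3 and SLC10A2), where 33.4% of the 22549 IDs did so, 19.0% with CDCA above and 14.4% with CDCA below. By limma, SLC10A2 passed the limit of 1 on its log2 fold change under totals without mitochondrial DNA genes, at -1.05 with an FDR of 0.00068, after rescaling the listed TPM to 1000000, at -1.45 with an FDR of 0.00081, and with a mean of at least 0.1 TPM and a pseudocount of 0.1 together, at -1.95 with an FDR of 0.0011. Those fits called 7.96%, 9.17% and 10.7% of their genes and gave an FDR under 0.05 to 51.5%, 45.5% and 36.3%. SLC51A had an FDR of 0.037 and 0.048 in the last 2 of them. In the first 2, SLC10A2 reached the filter of 1 TPM only through its CON libraries, so its calls there are no separate support.

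**Figure D2:**
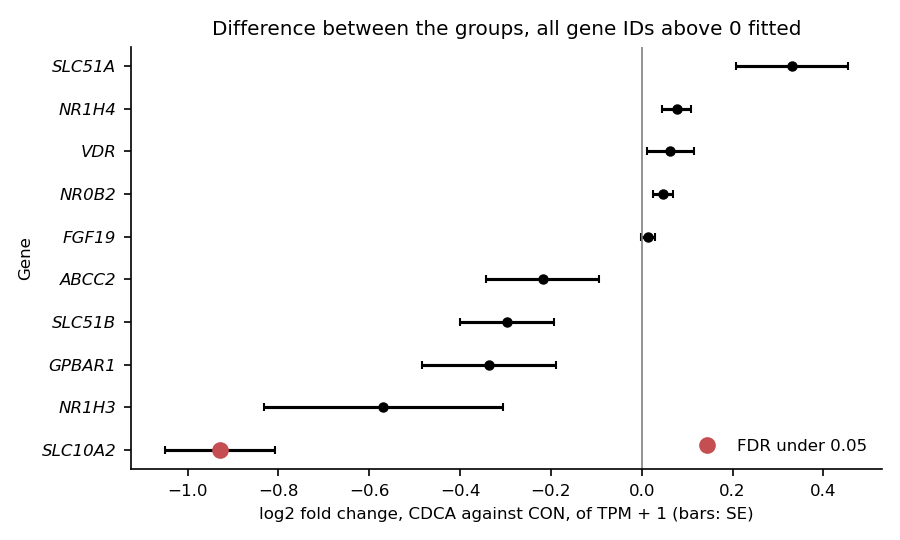
Log2 fold change of TPM + 1 (CDCA minus CON) of each member from limma over all 22549 IDs with a value above 0, points with bars of 1 standard error. SLC10A2 lies farthest from 0, at -0.93, and is the only member with an FDR under 0.05.

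Other genes of the same pathways were grouped in 9 lists, with the counts read against 2550 higher and 2085 lower of 8708 tested genes at an FDR under 0.05, that is 29.3%, 23.9% and together 53.2%. The median log2 fold change over all tested genes was 0.05. Under totals without mitochondrial DNA genes the counts given below as higher and lower were 2 and 2 for partners and cofactors, 5 and 3 for transporters, 1 and 2 for LXR targets, 1 and 3 for cAMP signalling, 3 and 3 for FGF19 signalling and 1 and 3 for synthesis, and did not change for the other lists. Under the same totals the medians given below turned to -0.019 for partners and cofactors, -0.13 for FXR targets, -0.088 for LXR targets, -0.11 for FGF19 signalling and -0.073 for synthesis, and after rescaling to 1000000 that of cAMP signalling was -0.14. Of 9 other bile acid receptors 7 were matched and 3 tested, with 2 higher and a median of 0.45. That median was the value of NR3C1 and was 0.064 over all matched receptors without a filter and 0.15 at a mean of 0.1 TPM. NR1H2 (LXRβ), the broadly expressed paralogue of LXRα, rose from 30.7 ± 0.4 to 44.8 ± 1.1 TPM (SD, n = 3 each), with a log2 fold change of 0.53 and a limma FDR of 8.2e-05. On the TPM scale it lay far above NR1H3 in every library, and NR3C1, the glucocorticoid receptor, rose from 0.757 to 1.40 TPM (FDR 0.019). The pregnane receptor NR1I2 and the androstane receptor NR1I3, other nuclear sensors of bile acids and drugs that were named after their values were seen, had at most 0.12 and 0.35 TPM.

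Of 17 partners and cofactors of nuclear receptors 11 were tested, 3 higher, 1 lower and 7 not passing, with a median of 0.10. HNF4A, a factor that keeps epithelial and liver genes on and is also on the epithelial marker list, fell from 5.97 ± 0.22 to 3.03 ± 0.65 TPM (SD, n = 3 each; limma FDR 0.0022). RXRB, one of the RXR partners of FXR, LXR and VDR, rose from 5.28, 5.08 and 5.55 TPM to 8.24, 9.51 and 9.26 TPM (FDR 0.00049). RXRA, named after its values were seen, scattered within the groups, with 7.78, 7.60 and 1.13 TPM in CON and 2.49, 1.52 and 12.57 TPM in CDCA.

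Of 26 listed transporters outside the members 25 were matched and 10 tested, with 5 higher, 2 lower and 3 not passing, and a median of 0.29; the other 15 matched were under the filter. The median was 0.014 without a filter, and 0.15 at a mean of 0.1 TPM as well as under totals without mitochondrial DNA genes. ABCB1 (P-glycoprotein), a broad exporter at the apical membrane, stood at 1.20, 0.93 and 2.06 TPM in CON and 12.89, 14.13 and 13.09 TPM in CDCA. The groups lay far apart, the ratio of means was 9.57, and limma gave a log2 fold change of 2.61 (SE 0.17) with an FDR of 4.6e-05. Named after their values were seen, the apical exporter ABCG2 rose from 4.93 to 9.29 TPM (FDR 0.00018) and the basolateral exporter ABCC3 from 11.1 to 16.4 TPM (FDR 0.0049, but 0.088 with the highest transcript alone), while the exporter ABCC1 fell from 18.5 to 12.8 TPM (FDR 0.00033). The liver transporters SLC10A1 (NTCP) and ABCB11 (BSEP), also named after their values were seen, had at most 0.25 and 0.12 TPM.

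Of 32 symbols listed for other targets of FXR 28 were matched and 12 tested, with 4 higher, 4 lower and 4 not passing, and a median of 0.01. The unmatched CYR61 is an older name of CCN1, which was matched. SQSTM1, the autophagy receptor p62, rose from 5.75 to 39.3 TPM on average, its CDCA libraries having 38.02, 51.88 and 27.88 TPM, with a log2 fold change of 2.55 and a limma FDR of 0.00017. TRIB3, a pseudokinase best known as a gene of the amino acid and endoplasmic reticulum stress response, rose from 3.77 ± 0.95 to 24.0 ± 4.2 TPM (SD, n = 3 each; FDR 7.8e-05). FOXM1, a driver of mitotic genes, fell from 6.99 to 1.62 TPM (FDR 0.00062). These 3 were the called genes of the list.

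Targets of LXR and VDR were read beside their receptors. Of 14 targets of LXR 6 were tested, 2 higher, 2 lower and 2 not passing, with a median of 0.02. FASN, the fatty acid synthase, fell from 2.65 to 1.18 TPM (limma FDR 0.024) and the desaturase SCD rose from 2.16 to 3.45 TPM (FDR 0.029). Leaving out CON_2, CON_3, CDCA_2 or CDCA_3 took FASN past an FDR of 0.05, up to 0.072, and leaving out CON_3, CDCA_1 or CDCA_3 did so for SCD, up to 0.090. Totals without mitochondrial DNA genes gave SCD an FDR of 0.074, and the highest transcript alone gave FASN 0.095. ABCA1 and SREBF1 were named after their values were seen. ABCA1 rose from 4.29 to 5.73 TPM (limma FDR 0.0071, and 0.015 without a filter). SREBF1 fell from 13.6 to 10.7 TPM (limma FDR 0.023, but 0.053 without a filter). Of 16 targets of VDR 12 were matched and 5 tested, 2 higher, 2 lower and 1 not passing, with a median of 0.31, which was 0.0072 without a filter and at a mean of 0.1 TPM. The differentiation factor KLF4 rose from 5.99 ± 3.54 to 17.1 ± 2.2 TPM (SD, n = 3 each; FDR 0.022, but 0.054 to 0.071 without any one of the CDCA libraries), and without CON_1, at 1.95 TPM the lowest library, its log2 fold change of 1.54 was 0.9993, just under the limit for a call. The transcription factor CEBPB rose from 41.8 to 114 TPM (FDR 0.00018). SLC37A2, a sugar phosphate exchanger, fell from 462 ± 10 to 216 ± 8 TPM (SD, n = 3 each; FDR 6.4e-06). CYP24A1, S100G and TRPV5 of the same list were under the filter and were named after their values were seen. CYP24A1 had 0.17 TPM in CON and 0.13 TPM in CDCA with overlapping groups, and S100G was listed at 0 throughout. TRPV5 was higher in every CDCA library, but at no more than 0.11 TPM.

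Downstream of TGR5, 12 genes of cAMP signalling were tested of 27 listed, 3 higher, 2 lower and 7 not passing, with a median of 0.0068. ADCY3, an adenylyl cyclase that makes cAMP, fell from 7.21 to 3.43 TPM (limma FDR 0.00035), and PRKAR1A, a regulatory subunit of protein kinase A, had 19.6 and 13.4 TPM (FDR 0.085). The log2 fold change of PRKAR1A was -0.56, with an FDR of 0.036 under totals without mitochondrial DNA genes and 0.042 without CDCA_2, and was -0.28 without CDCA_1. The other genes with an FDR under 0.05 were named after their values were seen. GNAS rose from 138 to 198 TPM (limma FDR 0.00022), while a second ID named GNAS had 0.88 and 0.81 TPM with overlapping groups. CREM and CRTC2 were also higher (limma FDR 0.013 and 0.044, for CRTC2 0.098 without a filter), and PRKACA was lower (FDR 0.0032). GCG, the gene of the hormone GLP-1 that TGR5 releases in endocrine cells, and DIO2, an enzyme that activates thyroid hormone in response to TGR5, were named after their values were seen and read at most 0.09 and 0.01 TPM.

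Of the 13 genes around FGF19 signalling 12 were matched and 8 tested, 3 higher, 1 lower and 4 not passing, with a median of 0.01. FGFR4, the main FGF19 receptor of the liver, fell from 6.01 ± 0.48 to 2.58 ± 0.16 TPM (SD, n = 3 each; limma FDR 0.00016) and FGF21, a stress hormone of the same family, rose from 0.83 to 1.89 TPM (FDR 0.0042). FGFR4 is also on the list of other FXR targets and is counted among the lower genes there. The co-receptor KLB, named after its values were seen, lay between 0.32 and 0.54 TPM with overlapping groups.

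Of 16 enzymes of bile acid synthesis and conjugation 15 were matched and 6 tested, 2 higher, 1 lower and 3 not passing, with a median of 0.04. CYP39A1, an oxysterol hydroxylase, rose from 1.38 to 2.78 TPM (limma FDR 0.0028) and HSD3B7, a dehydrogenase of the sterol ring, fell from 45.4 to 28.4 TPM (FDR 0.00011). CYP7A1, the gene that SHP and FGF19 restrain in liver, was named after its values were seen and read 0.71, 0.75 and 0.69 TPM in CON and 0.30, 0.17 and 0.33 TPM in CDCA, lower in every CDCA library, with a limma FDR of 0.015 without a filter.

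**Figure D3:**
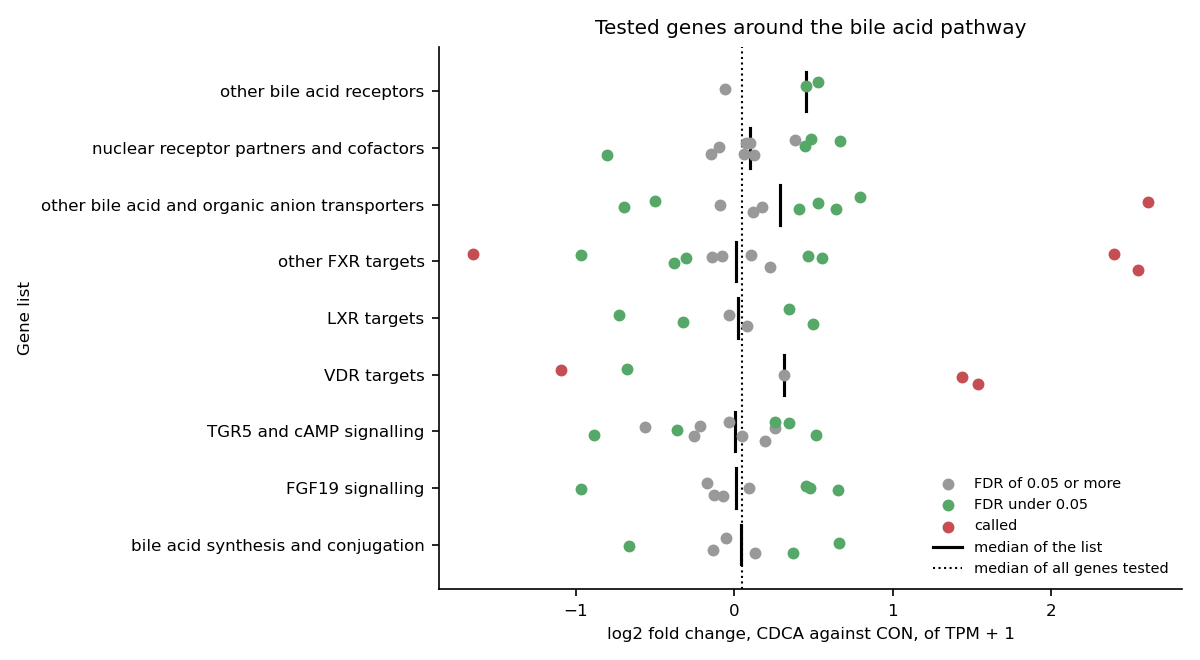
Log2 fold change of TPM + 1 (CDCA minus CON) of every tested gene in the 9 pathway lists, 1 row per list, points coloured by whether the gene was called, had an FDR under 0.05 only or neither; vertical bars are list medians and the dotted line is the median of all tested genes. ABCB1, SQSTM1 and TRIB3 lie farthest to the right, at 2.61, 2.55 and 2.40, and FOXM1 farthest to the left, at -1.65.

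**Figure D4:**
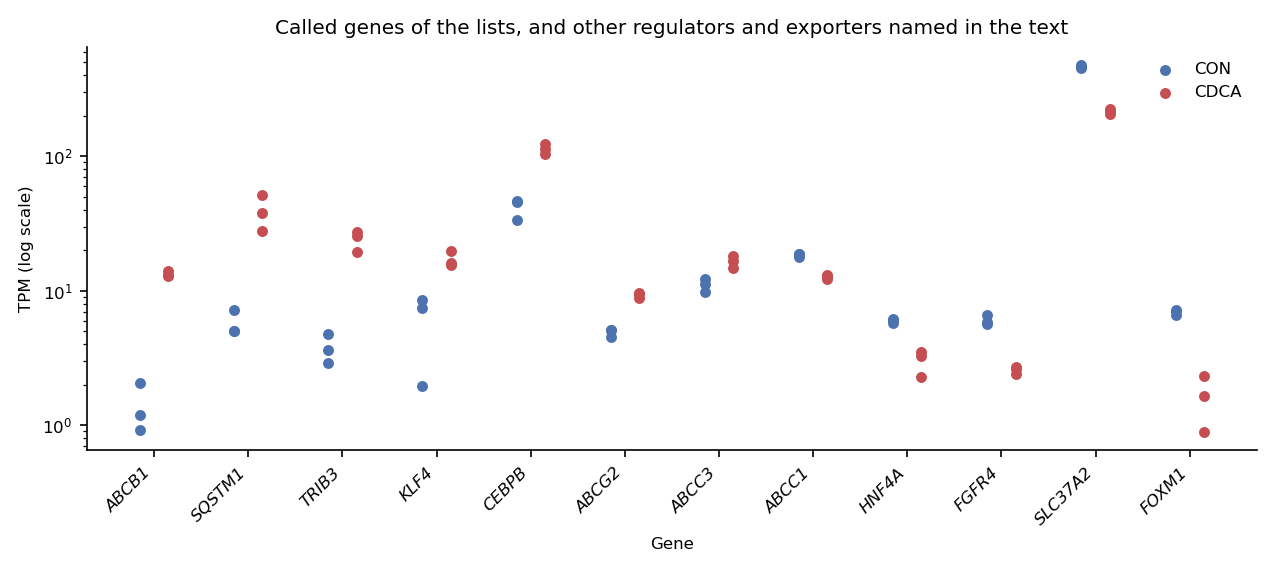
TPM on a log axis of the called genes of the lists and of ABCG2, ABCC3, ABCC1, HNF4A and FGFR4 in the 3 CON and 3 CDCA libraries, 1 point per library. ABCB1 stands at 0.93 to 2.06 TPM in CON and 12.89 to 14.13 TPM in CDCA, and SLC37A2 lies highest, at 462 against 216 TPM on average.

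The reference genes of the study's RT-qPCR, on which no value here depends, were read as well. The legend of the paper's RT-qPCR comparison also names FXR, LXRα and TGR5, and reports trends similar to RNA-seq for the genes it checked. Those RT-qPCR values were not read here. ACTB, the actin gene, fell from 1241 ± 78 to 753 ± 43 TPM (SD, n = 3 each; limma FDR 0.00014), and GAPDH had 247 ± 65 and 253 ± 33 TPM (SD, n = 3 each; FDR 0.81). The log2 fold change of GAPDH was 0.06, and was -0.09 under totals without the genes of mitochondrial DNA.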

How the data were processed

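RNA of 6 IPEC-J2 libraries (3 CON, 3 CDCA) was sequenced. RSEM was the authors' quantifier. They deposited TPM for 63041 rows of 31908 Ensembl pig gene IDs, with no counts column or coordinates in the table used. The submitters' processing notes name Bowtie 0.12.2 and a mouse build, mm10, although the IDs are of pig; the annotation release is not given in the sources used here. Values at transcripts that are not listed are not part of a gene's sum. The study calls the libraries biological replicates, but the labels do not say whether they came from separate cultures, and p-values measure the spread between these libraries.

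Rows were summed per gene ID. Symbols came from the deposited table (16719 IDs), a table of Ensembl names (782) or NCBI gene numbers matched to Sscrofa11.1 (2364). Groups were taken from the labels. TPM was tested as log2(TPM + 1), a pseudocount of 1, with limma 3.58.1 in R 4.3.3 (lmFit, eBayes with a trend, Benjamini-Hochberg) for genes averaging 1 TPM or more, and single genes with the exact permutation test of scipy 1.17.1, two-sided. The limma fit with the filter of 1 TPM was checked on simulated data. The fits without a filter or at 0.1 TPM, on which the tests of 9 members rest, were not checked in this way. A gene was called at an FDR under 0.05 and a log2 fold change over 1 in size. The authors' edgeR test needs counts and was not used.

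The members and lists were chosen with earlier results of these data known. Named genes were the members, each list's called genes (up to 4 per direction; otherwise its 2 largest tested changes), ACTB, GAPDH, the highest marker of each marker list and the 3 genes nearest in profile to a member over 1 TPM; others are said to have been named after their values were seen. Alternatives were a pseudocount of 0.1, no filter or a mean of at least 0.1 TPM, totals without mitochondrial DNA genes, rescaling to 1000000, a median ratio scaling, the highest transcript, a replicate block, no trend and each library left out. A lower filter with a pseudocount of 0.1, and the unfiltered fit with a block or with each library left out, were added after seeing the data. Promoter motifs and sequences were not analysed here.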

Additional observations from a re-analysis of the deposited data

How the results depend on the processing

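All values are from limma on TPM. With no filter, 1 member had an FDR under 0.05 (SLC10A2), as with totals without mitochondrial DNA genes (1 member called) and with no filter and a replicate block, which gave SLC10A2 an FDR of 0.026. A mean of at least 0.1 TPM gave 2 members (SLC10A2 and SLC51A), rescaling to 1000000 gave 2 with 1 called, and a mean of at least 0.1 TPM with a pseudocount of 0.1 gave 2 with 1 called. Leaving out each library in turn gave 0 with the filter and 1 to 2 without it. SLC51A had an FDR of 0.24 with no filter and a replicate block. Under totals without mitochondrial DNA genes and after rescaling, SLC10A2 was over the filter only through its CON libraries.

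Genes called higher numbered 306, and 509 with a pseudocount of 0.1, 523 after rescaling and 805 with the lower filter and pseudocount together, which gave 698 lower. Leaving out each library gave 311 to 324 higher and 338 to 359 lower. Same-numbered libraries of the groups did not deviate together (r of -0.0353, -0.0916 and -0.0509), so the numbers were not taken as pairs; the replicate block called 309 higher and 343 lower.

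Medians of log2 fold change moved as follows. Without a filter and at 0.1 TPM, other receptors gave 0.064 and 0.15, other transporters 0.014 and 0.15, and VDR targets 0.0072 in both. With totals without mitochondrial DNA genes, partners gave -0.019, transporters 0.15, FXR targets -0.13, LXR targets -0.088, FGF19 signalling -0.11 and synthesis -0.073. After rescaling, FXR targets gave 0.13, LXR targets 0.14, cAMP signalling -0.14 and FGF19 signalling 0.092. With a pseudocount of 0.1, VDR targets gave 0.53 and synthesis -0.10. Leaving out each library gave 0.40 to 0.52 for receptors, 0.10 to 0.18 for partners, 0.26 to 0.36 for transporters, -0.03 to 0.05 for FXR targets, -0.0064 to 0.08 for LXR targets, 0.26 to 0.38 for VDR targets, -0.06 to 0.09 for cAMP signalling, -0.032 to 0.11 for FGF19 signalling and -0.10 to 0.13 for synthesis. The causes were not tested.

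The log2 fold change of GAPDH, which passed no test, changed sign with totals without mitochondrial DNA genes (-0.091) and without CON_1 (-0.13) or CDCA_1 (-0.023), within a range of -0.13 to 0.25 over the libraries left out. KLF4, FASN and SCD had an FDR of 0.060, 0.063 and 0.071 without a filter, and FASN had 0.060 with a replicate block. At the level of 0.1 TPM, 7 members counted in place of 4. Differences of a few hundredths of a TPM are near the last digit kept, and without read counts the precision of values this low is unknown.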
